A study of Mus musculus with 24 samples.

Results

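The genes described here are 7 matrix metalloproteinases (Mmp2, Mmp3, Mmp9, Mmp10, Mmp12, Mmp13 and Mmp14) and 3 of their tissue inhibitors (Timp1, Timp2 and Timp3). They were picked by gene symbol, 10 rows of a count table of 55414 genes, and all 10 were among the 16029 genes that passed the expression filter. They were measured in bulk RNA from 24 D4M tumours, D4M being a mouse melanoma line, each grown in a C57BL/6 wild-type mouse and sequenced as 1 library. There were 4 groups of 6 tumours. Mice of the first group, called IgG2a, were injected with a control antibody of that isotype, and those of the second, called PD-1, with an antibody that blocks PD-1, an inhibitory receptor of T cells. The other groups had brequinar as well, beside the isotype control in BRQ+IgG2a and beside anti-PD-1 in BRQ+PD-1. Injections were intraperitoneal, and every mouse therefore had an antibody. The labels used here state no dose, time or age. Brequinar (BRQ) inhibits dihydroorotate dehydrogenase, an enzyme of pyrimidine synthesis, and the stated aim was the effect of the drug and antibody pair on the tumour environment.

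Matrix metalloproteinases are zinc-dependent enzymes that cut collagens, laminins, elastin and other proteins outside the cell. Most are secreted as inactive precursors and are activated by other proteases, and the inhibitors called TIMPs bind the active site. In tumours, fibroblasts, macrophages, neutrophils and the tumour cells themselves can all make them, and messenger RNA does not show how much active enzyme is present.

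Library totals ran from 19106205 to 34282319 counts, so 1 CPM (counts scaled to the library total times its TMM factor, edgeR's correction for composition) rested on 19.1 to 34.3 counts. In 4 tumours (IgG2a replicates 2 and 3, PD-1 replicate 6, BRQ+IgG2a replicate 4) the skeletal muscle actin gene Acta1 was at 4070 to 15000 CPM, against at most 425 CPM elsewhere, and they are called muscle-rich below. Of 7 melanocytic markers, which bear on the label, Dct and Tyr had 0 counts in every library and Tyrp1, Mlana and Sox10 did not pass the expression filter. Mitf, the lineage's transcription factor, was present at a mean of 18.4 CPM, and Pmel, a melanosome protein gene, at 0.485 CPM. The labels number the libraries of a group as biological replicates but do not say that each came from a separate mouse. The p-values reflect how far tumours of a group vary, which may be partly technical.

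Mmp13, Mmp12, Mmp3 and Mmp10 belong to a single cluster of metalloproteinase genes on chromosome 9, where the annotated order is Mmp13, Mmp12, Mmp1b, Mmp3, Mmp1a, Mmp10, Mmp8, Mmp27, Mmp20 and Mmp7. Mmp10, Mmp12 and Mmp13 also varied together between tumours (below), and the start of their promoters is shown with that of Mmp3, their neighbour, which followed them less closely. Each sequence is the 100 bases just upstream of a RefSeq transcription start in GRCm38.p6, while the counts were made on GRCm39, and all lie on the plus strand. Capitals mark matches to TGANTCA on either strand, the 7-letter core bound by AP-1 (Fos and Jun) factors.
Mmp13 (chr9:7272414-7272513): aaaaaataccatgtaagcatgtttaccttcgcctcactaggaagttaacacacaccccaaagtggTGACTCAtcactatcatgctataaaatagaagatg
Mmp12, second start (chr9:7347274-7347373): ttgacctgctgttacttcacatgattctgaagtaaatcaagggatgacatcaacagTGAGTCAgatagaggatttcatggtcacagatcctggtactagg
Mmp3 (chr9:7445722-7445821): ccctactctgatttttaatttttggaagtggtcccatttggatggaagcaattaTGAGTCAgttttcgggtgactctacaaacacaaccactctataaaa
Mmp10 (chr9:7502242-7502341): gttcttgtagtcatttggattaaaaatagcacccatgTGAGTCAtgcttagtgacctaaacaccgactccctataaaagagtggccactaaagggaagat

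The match began 35 bases before the start in Mmp13, 44 in Mmp12, 46 in Mmp3 and 63 in Mmp10. Of the 8 members with a RefSeq promoter entry, these 4 held TGANTCA within 250 bases upstream, against 6.75% of 32851 promoter windows of the same length. In Mmp12 only the second of the annotated starts held it. The letters TATAAA, the core of the TATA box, lay upstream of Mmp13, Mmp3 and Mmp10 and of 12.4% of all windows. A match describes the letters only and was not tested for binding.

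The promoters of Timp3, Timp2, Timp1 and Mmp14 held no TGANTCA within 250 bases and instead held GGGCGG, the core bound by Sp1, on either strand, as did 32.7% of all windows. Timp3 is shown because it was the member called in both pairs of groups that differ by brequinar; its match, in capitals, is the reverse complement, on the plus strand of GRCm38.p6.
Timp3 (chr10:86300312-86300411): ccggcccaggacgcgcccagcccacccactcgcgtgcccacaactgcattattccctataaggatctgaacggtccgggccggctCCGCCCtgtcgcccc

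Levels were compared between genes per kilobase of exon, with every annotated exon base of a gene counted in its length. Timp2, an inhibitor that also takes part in the activation of pro-MMP2 at the cell surface, had the highest mean level over all tumours, 405 CPM per kb. Mmp2, a gelatinase that cuts denatured collagen and type IV collagen, followed at 250 CPM per kb. Timp1, a secreted inhibitor, had 225 and Mmp14, the membrane-bound protease that activates pro-MMP2, had 136 CPM per kb. The other gelatinase, Mmp9, stood at 29.7 CPM per kb. The stromelysin Mmp3 and the collagenase Mmp13 had 20.5 and 20.3 CPM per kb, and the macrophage elastase Mmp12 had 9.21. Timp3, the inhibitor that binds to the matrix, stood at 6.07 and the second stromelysin, Mmp10, at 1.14 CPM per kb, which is 8 to 230 counts in a library. The order depends on these lengths, 7237 bases for Mmp12 and 8144 for Timp3 against 2673 for Mmp13 and 1801 for Mmp3. In CPM alone the means were 66.7 for Mmp12, 54.3 for Mmp13, 49.5 for Timp3 and 37 for Mmp3.

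The genes also differed in how much tumours of the same group varied. The within-group SD of log2 CPM was 0.20 for Mmp14, 0.26 for Mmp2, 0.33 for Timp2 and 0.39 for Timp3, against a median of 0.28 over all genes tested. It was 0.64 for Timp1, 0.69 for Mmp3, 0.84 for Mmp9, 0.91 for Mmp13, 1.06 for Mmp12 and 1.2 for Mmp10. For the last of these, 96.5% of genes tested had a lower SD. Differences between groups of 6 were therefore measured much more closely for the first 4 genes than for the rest.

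**Figure D1:**
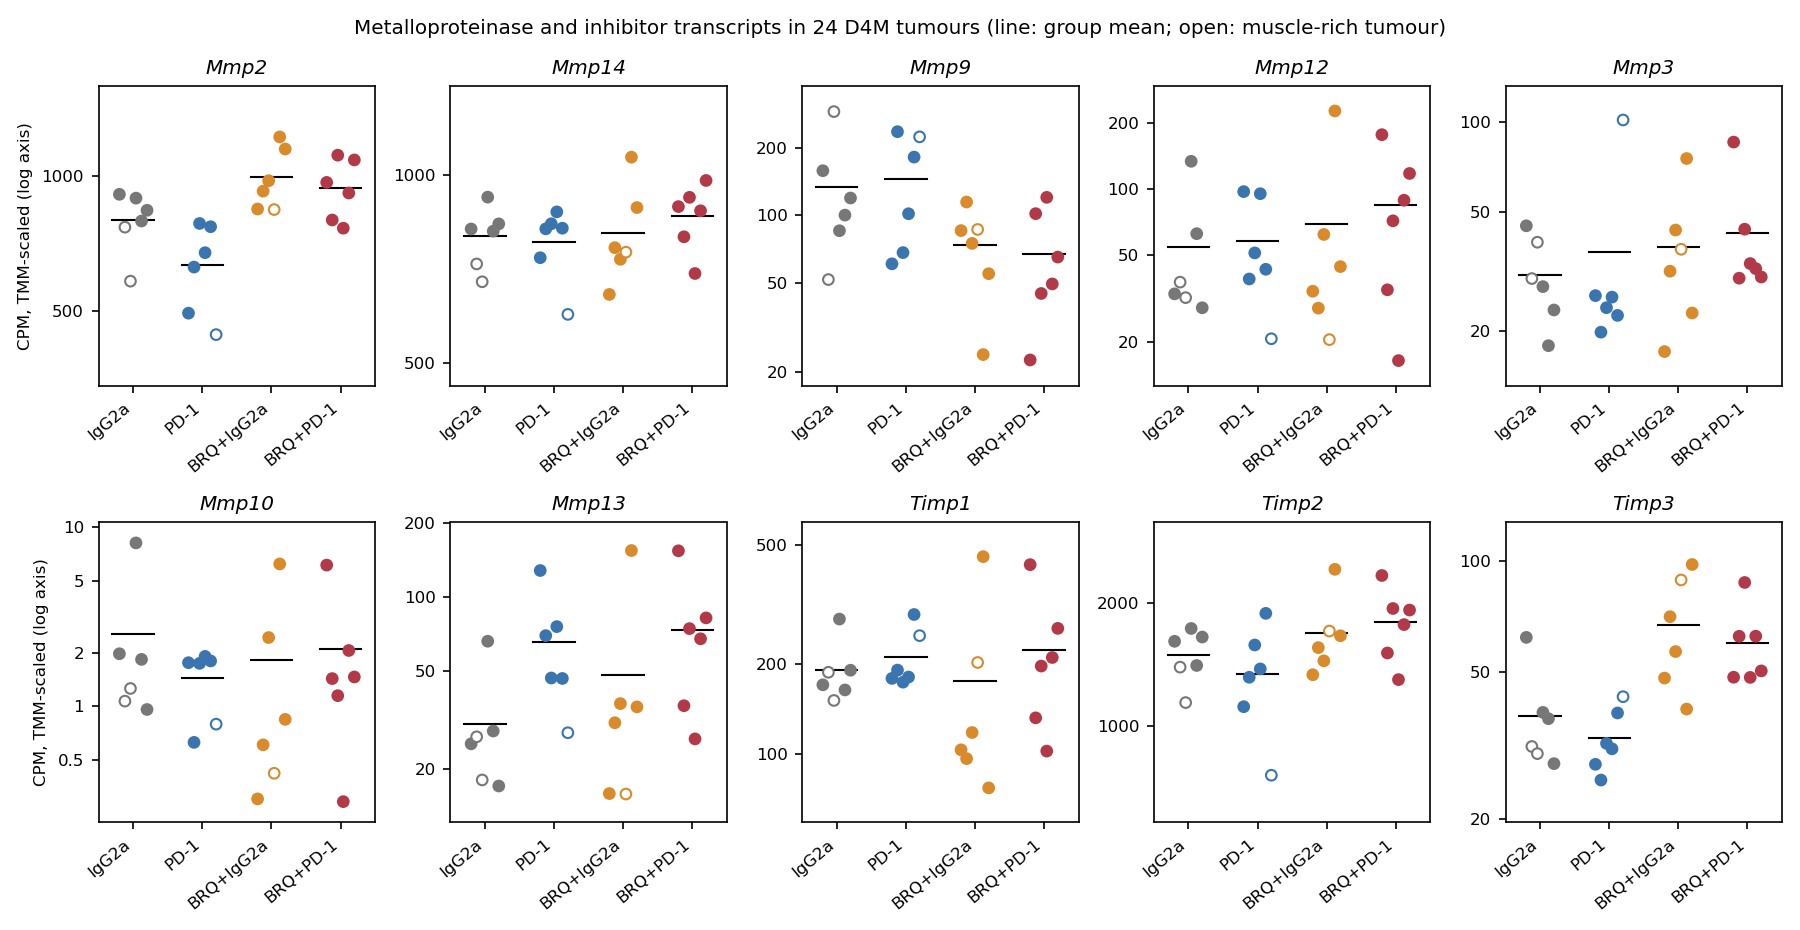
CPM (log axis) of each of the 10 genes in each of the 24 tumours, by treatment group; each point is a tumour, marked where it is muscle-rich, and the bar is the group mean. Timp3 and Mmp2 sit higher in the brequinar groups, Mmp9 sits lower, and Mmp10, Mmp12 and Mmp13 spread widely within every group.

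Brequinar was compared with no brequinar over both antibodies, 12 tumours against 12. Timp3 and Mmp2 rose and Mmp9 fell, and the other 7 genes did not pass the test. The rise was 1.79-fold for Timp3 and 1.36-fold for Mmp2. Of all genes tested 12.5% were called in this comparison (edgeR quasi-likelihood test, Benjamini-Hochberg adjusted p under 0.05), 6.91% higher and 5.57% lower, against 3 of the 10 genes here, and 2 of 10 without the 4 muscle-rich tumours. In bulk RNA, fewer cells of a type and less RNA per cell cannot be told apart.

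Timp3 ranged from 28.2 to 62.0 CPM in IgG2a (median 34.4) and from 25.4 to 42.8 in PD-1 (31.5). With brequinar it ranged from 39.6 to 97.8 CPM in BRQ+IgG2a (63.7) and from 48.3 to 87.4 in BRQ+PD-1 (56.4). All 12 brequinar tumours lay above the mean of the other 12, and the ranges overlapped through IgG2a replicate 1, at 62.0 CPM, and BRQ+IgG2a replicate 5, at 39.6 CPM. The means were 63.4 ± 18.9 CPM with brequinar and 35.5 ± 9.88 without (SD, n = 12 each). On the log2 scale the difference was 0.84 ± 0.16 (SE), with an edgeR adjusted p of 0.00139. It was called in 30 of 30 alternative fits, where it lay between 0.76 and 0.94.

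Mmp2 ranged from 583 to 912 CPM in IgG2a (median 818) and from 443 to 785 in PD-1 (651). With brequinar it ranged from 843 to 1230 CPM in BRQ+IgG2a (953) and from 766 to 1120 in BRQ+PD-1 (944). All 12 brequinar tumours were again above the mean of the rest, with overlapping ranges. The means were 969 ± 148 and 716 ± 152 CPM (SD, n = 12 each), and the log2 difference was 0.45 ± 0.10 with an edgeR adjusted p of 0.00604. It was called in 30 of 30 alternative fits, between 0.36 and 0.48. The muscle-rich IgG2a replicate 3 and PD-1 replicate 6 were the lowest of their groups, and without the 4 muscle-rich tumours the log2 fold change was 0.36 (adjusted p 0.0201).

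Mmp9, which neutrophils store and macrophages can make, ranged from 51.8 to 290 CPM in IgG2a (median 110) and from 60.9 to 236 in PD-1 (142). With brequinar it ranged from 24 to 115 CPM in BRQ+IgG2a (80.3) and from 22.7 to 120 in BRQ+PD-1 (57.4). Each of the 12 brequinar tumours was below the mean of the others, and the ranges overlapped widely. That mean, 140 CPM, lay above the median of the same tumours, 111 CPM, because a few were high. The means were 70.5 ± 32.7 against 140 ± 77.7 CPM (SD, n = 12 each), and the log2 difference was -0.99 ± 0.33 with an edgeR adjusted p of 0.0496. That call was borderline: it held in 10 of 30 alternative fits and was lost in 17 of the 24 that left out a single tumour (log2 fold change -1.1 to -0.81). Without IgG2a replicate 3, a muscle-rich tumour at 290 CPM, the adjusted p was 0.1, and without all 4 muscle-rich tumours the log2 fold change was -0.84 (adjusted p 0.112).

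Timp2 and Mmp14 make up, with Mmp2, the cell-surface activation system, and neither passed the test. Timp2 had a mean of 1740 ± 358 CPM with brequinar and 1410 ± 308 without, a log2 fold change of 0.30 ± 0.13 (adjusted p 0.12, 95% interval 0.04 to 0.56, above the mean in 10 of 12 tumours). Mmp14 had 835 ± 124 and 790 ± 90.2 CPM, a log2 fold change of 0.08 ± 0.08 (adjusted p 0.554). Its 95% interval, -0.09 to 0.25, was the narrowest of the 10.

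The remaining 5 genes, which varied most apart from Mmp9, had wide intervals and did not pass. The log2 fold change was 0.45 ± 0.43 for Mmp12 (adjusted p 0.53), 0.41 ± 0.38 for Mmp13 (0.508) and 0.26 ± 0.29 for Mmp3 (0.59). Mmp10 had 0.02 ± 0.50 (0.988), with a 95% interval of -1.02 to 1.05. Timp1 had -0.02 ± 0.26 (0.967), with an interval of -0.57 to 0.52. The signs of Mmp10, Timp1 and Mmp13 turned when a single tumour was left out, so no direction is given for them.

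**Figure D2:**
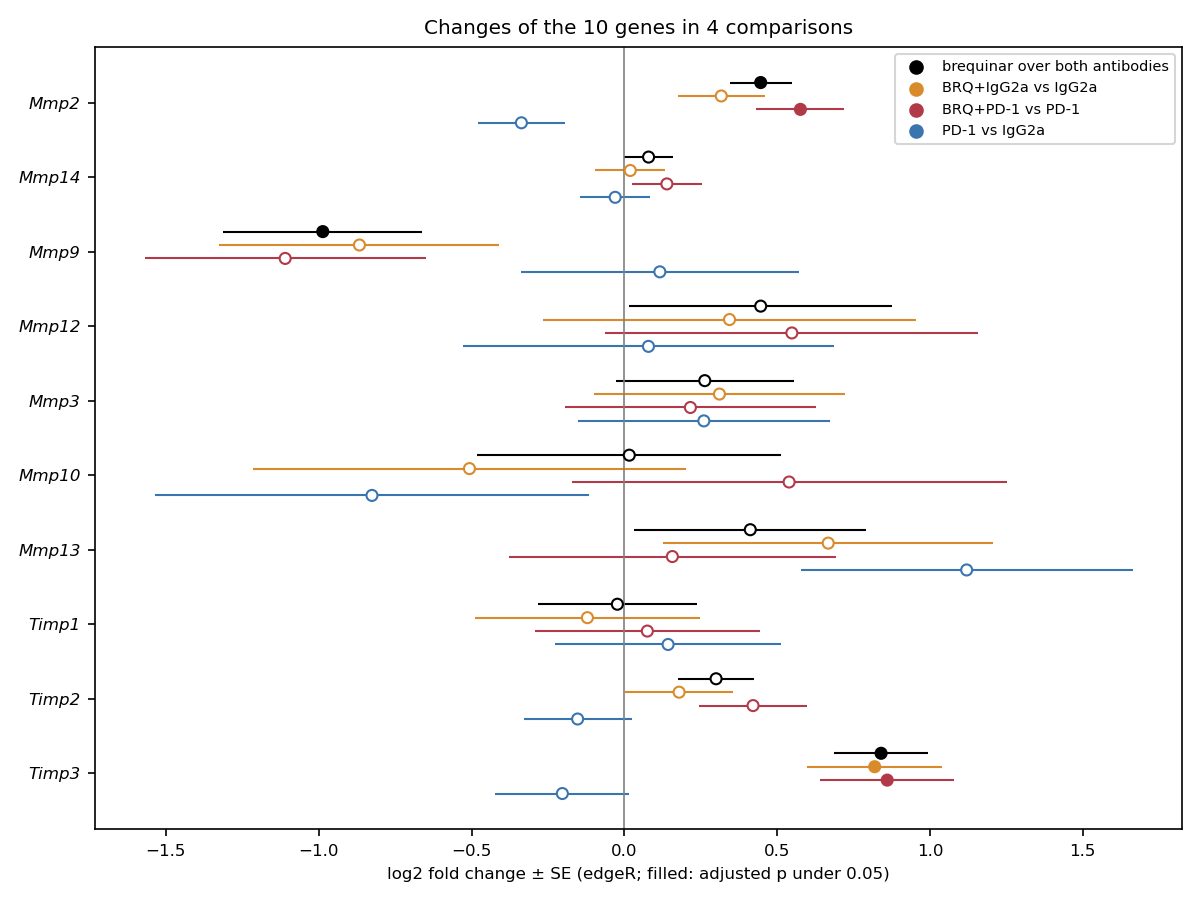
Log2 fold change of each gene (horizontal axis) in 4 comparisons, as points with bars of 1 SE; filled points passed an edgeR adjusted p under 0.05. Timp3 is filled in the 3 brequinar comparisons, Mmp2 in 2 and Mmp9 in 1, and no gene is filled for PD-1 against IgG2a.

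The separate comparisons share tumours with the pooled one and with each other, so their values are given side by side and are no replication. Timp3 was the 1 member called between BRQ+IgG2a and IgG2a, at 67.0 ± 23 against 38.0 ± 12.5 CPM (SD, n = 6 each), with overlapping ranges. The log2 difference was 0.82 ± 0.22, with an edgeR adjusted p of 0.0373. Among all genes 3.46% were called there, 2.96% higher. Its call held in 6 of 19 alternative fits, and without the muscle-rich tumours the log2 fold change was 0.58 (adjusted p 0.268). Of the 12 fits that left out 1 tumour, 3 kept the call: those without IgG2a replicate 1, BRQ+IgG2a replicate 1 or BRQ+IgG2a replicate 5. Mmp2 had 0.32 ± 0.14 (0.292) and Mmp9 -0.87 ± 0.46 (0.398), and neither passed. Timp1 was at -0.12 ± 0.37 (0.93) by edgeR, and limma voom called it, at -0.71 (adjusted p 0.0426).

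Between BRQ+PD-1 and PD-1, Timp3 and Mmp2 were both higher. Timp3 stood at 59.9 ± 15.0 against 33.0 ± 6.57 CPM (SD, n = 6 each), with no overlap between the groups, a log2 fold change of 0.86 ± 0.22 (edgeR adjusted p 0.0256). Mmp2 stood at 943 ± 145 against 633 ± 141 CPM, with overlap at PD-1 replicates 3 and 5, a log2 fold change of 0.58 ± 0.14 (0.0226). These were 2 of 10 members, against 5.04% of all genes called and 2.38% called higher. Both remained called when all 4 muscle-rich tumours of the series were left out (edgeR adjusted p 0.0293 and 0.0457). Only PD-1 replicate 6 of those belongs to the groups compared here, and leaving out that tumour alone lost the call of Mmp2 (below).

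Both of these calls depended in part on single tumours. Of the 12 fits that left out 1 tumour, Timp3 kept its call in 9 and Mmp2 in 8. Timp3 lost its call without PD-1 replicate 1, PD-1 replicate 2 or BRQ+PD-1 replicate 3, and its adjusted p then reached 0.0741. Mmp2 lost its call without PD-1 replicate 1, PD-1 replicate 6, BRQ+PD-1 replicate 3 or BRQ+PD-1 replicate 6, at up to 0.0622. In the same comparison the log2 difference was 0.42 ± 0.18 for Timp2 (0.17, called by limma voom at 0.0304) and -1.1 ± 0.46 for Mmp9 (0.166).

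Anti-PD-1 alone called none of the 10 genes, and 0.0187% of all genes tested (edgeR; 1036 genes at an unadjusted p under 0.05, and no member by DESeq2 or limma voom). Mmp13 ranged from 17.0 to 65.9 CPM in IgG2a (median 26.1) and from 28 to 128 in PD-1 (58.0). The groups overlapped, and the log2 fold change was 1.12 ± 0.54 (adjusted p 0.765). Mmp2 had -0.34 ± 0.14 (0.69), the other member with an unadjusted p under 0.1.

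With both treatments against IgG2a, 3.91% of all genes and 0 of the 10 members were called by edgeR (3727 genes at an unadjusted p under 0.05; DESeq2 called 1 member and limma voom 2). Timp3 came closest, at 0.66 ± 0.22 (adjusted p 0.0856), and DESeq2 called it at 0.0389. Mmp13 had 1.28 ± 0.55 (0.162), and limma voom called it at 0.0232. Adding anti-PD-1 to brequinar (BRQ+PD-1 against BRQ+IgG2a) called 0% of all genes by edgeR and no member, with 1168 genes at an unadjusted p under 0.05, 4 genes by DESeq2 and 705 by limma voom, Timp1 among the latter (adjusted p 0.0372).

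The interaction, which asks whether the brequinar difference itself changed with the antibody, also called 0% of all genes and no member by edgeR (1222 genes at an unadjusted p under 0.05, 11 called by DESeq2 and 330 by limma voom, no member among them). For Timp3 it was 0.04 ± 0.31 on the log2 scale, with a 95% interval of -0.60 to 0.69. For Mmp2 it was 0.26 ± 0.20, from -0.16 to 0.68. The call of Mmp2 in BRQ+PD-1 against PD-1 and not in BRQ+IgG2a against IgG2a is thus not shown to be a difference between antibodies.

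Single tumours stood out across several of the variable genes. Mmp12 reached 134 CPM in IgG2a replicate 4, 228 in BRQ+IgG2a replicate 5 and 177 in BRQ+PD-1 replicate 1, the highest of their groups. The same 3 tumours were the highest of their groups for Mmp13, at 65.9, 154 and 154 CPM, for Mmp10, at 8.18, 6.24 and 6.15 CPM, and for Timp1, at 282, 456 and 429 CPM. None of the 3 was muscle-rich. Their TMM factors were 0.969, 0.914 and 0.928 in that order, in a range of 0.914 to 1.05 over the series. BRQ+IgG2a replicate 5 and BRQ+PD-1 replicate 1 were the lowest of their groups for Mmp9, at 24 and 22.7 CPM. BRQ+PD-1 replicate 4 was the reverse, the lowest of its group for Mmp10, Mmp12, Mmp13 and Timp1 and the highest for Mmp9, at 120 CPM.

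Marker sums also set some of these tumours apart. The summed fibroblast markers were lowest of their groups in BRQ+IgG2a replicate 5 and BRQ+PD-1 replicate 1, at 3060 and 2940 CPM against group medians of 4840 and 4190, and the 5 T cell markers were also lowest there, at 17.1 and 13.6 CPM. The 7 macrophage markers summed to 1070 CPM in BRQ+IgG2a replicate 5, the lowest of its group, and to 1290 CPM in IgG2a replicate 4, likewise. BRQ+PD-1 replicate 1, at 1940 CPM, was not the lowest for macrophage markers, nor was IgG2a replicate 4 for fibroblast (4000 CPM) or T cell markers (9.6 CPM). The summed melanocytic markers were the highest of their groups in all 3 tumours, at 18, 42.2 and 52.1 CPM, against group medians of 15.2, 14.8 and 24.3. Most of that sum was the single gene Mitf. Its means were 14.5, 13.7, 18.7 and 26.9 CPM in IgG2a, PD-1, BRQ+IgG2a and BRQ+PD-1. The means of the sum were 15.3, 14.4, 19.4 and 27.6 CPM. In BRQ+PD-1 replicate 4 that sum was the lowest of its group, at 15.8 CPM. The 4 mast cell markers summed to 121 CPM in BRQ+IgG2a replicate 5, the highest of its group, and to 142 CPM in BRQ+PD-1 replicate 1 (group medians 58.4 and 79.3). In IgG2a replicate 4 they summed to 31.4 CPM, below its group median of 41.1. The 4 endothelial markers summed to 221, 251 and 229 CPM in the same 3 tumours (IgG2a replicate 4 first), against group medians of 168, 170 and 221. The part of these cell types in the values was not tested.

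**Figure D3:**
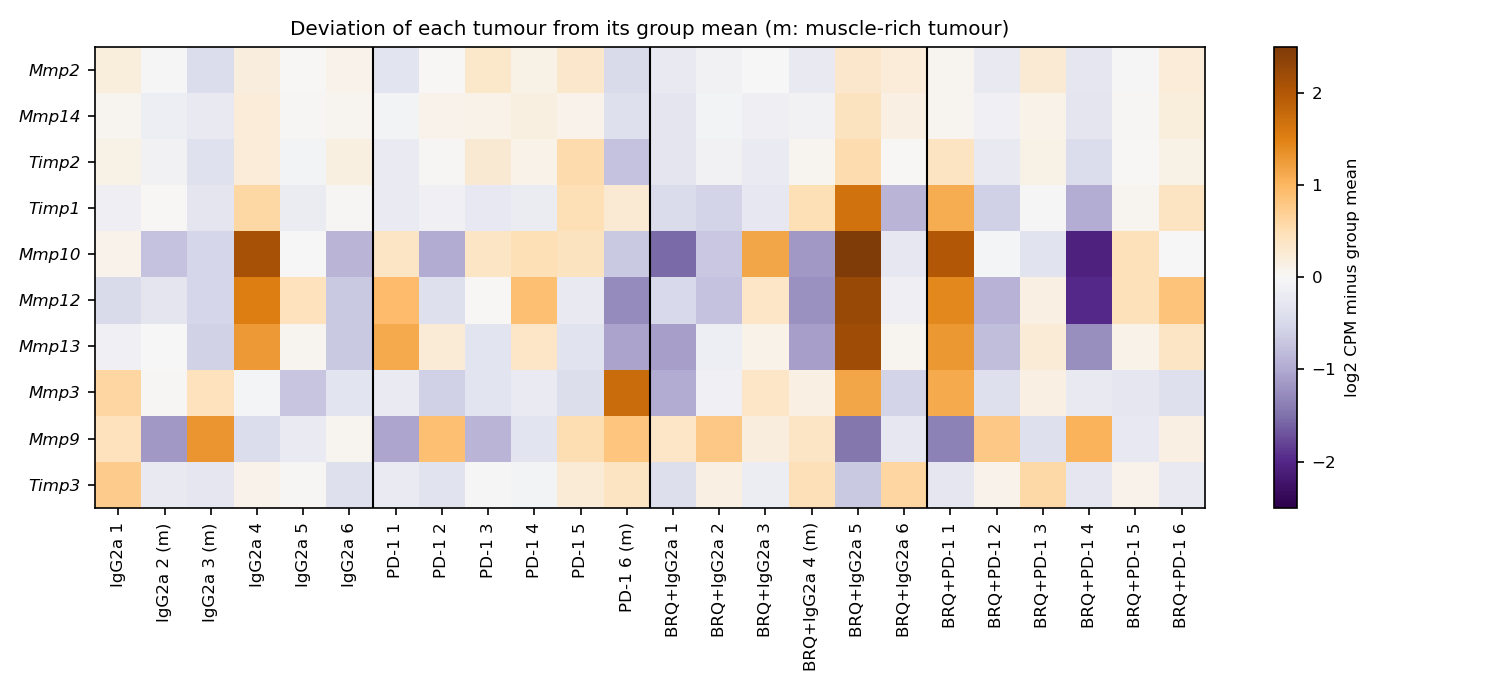
Deviation of each tumour (columns, by group) from its group mean in log2 CPM for each gene (rows); orange is above and purple below, and m marks the muscle-rich tumours. IgG2a 4, BRQ+IgG2a 5 and BRQ+PD-1 1 are orange for Timp1, Mmp10, Mmp12 and Mmp13, and the last 2 are purple for Mmp9.

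The genes were correlated over the 20 tumours that were not muscle-rich, after subtraction of the group means from log2 CPM. Of 45 pairs, 28 passed a permutation test adjusted over the pairs, 22 positive and 6 negative, by Pearson's r. By Spearman's rho 18 passed, 15 positive and 3 negative, and Timp3 was in none by either measure. How often pairs of other genes pass was not tested, so these counts are not shown to be particular to this family. Mmp12 and Mmp13 had r = 0.918 (rho = 0.913, adjusted permutation p 0.00045 and 0.00063), Mmp12 and Mmp10 r = 0.873 (rho = 0.797, 0.00045 and 0.000975), and Mmp10 and Mmp13 r = 0.836 (rho = 0.695, 0.00129 and 0.0124). Leaving out the 2 tumours farthest from the median of the first gene gave 0.878, 0.79 and 0.742. These 3 are the elastase, collagenase and stromelysin genes of the chromosome 9 cluster whose promoters are printed above.

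The genes of the surface activation system were also correlated with each other. Mmp2 and Timp2 had r = 0.84 (rho = 0.91, adjusted permutation p 0.00054 and 0.00045), Mmp14 and Timp2 r = 0.807 (rho = 0.811, 0.000675 and 0.00063), and Mmp2 and Mmp14 r = 0.799 (rho = 0.838, 0.00045 and 0.00063). Without the 2 farthest tumours they were 0.785, 0.711 and 0.778. Timp1 and Timp2 had r = 0.832 (rho = 0.725, 0.00163 and 0.0112), and 0.693 without the 2 farthest tumours. By both measures Timp1 also passed with Mmp12, Mmp13 and Mmp10 (r = 0.8, 0.783 and 0.78) and with Mmp14 and Mmp2 (0.693 and 0.514). Mmp14 passed with Mmp13 and Mmp12 (0.725 and 0.705), and Mmp3 with Mmp10 (0.709). The pairs of Timp1 and Mmp14 join the surface activation genes to the chromosome 9 genes, so these were not separate sets.

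All 6 negative pairs involved Mmp9. With Mmp12 it had r = -0.823 (rho = -0.805, adjusted permutation p 0.00045 and 0.00063), with Mmp13 -0.756 (rho = -0.675, 0.00288 and 0.0161) and with Mmp10 -0.725 (rho = -0.623, 0.00288 and 0.0206). These stayed at -0.716, -0.582 and -0.536 without the 2 tumours farthest for Mmp9. The pairs of Mmp9 with Timp1, Mmp14 and Mmp3 had r = -0.626, -0.557 and -0.55 and passed by Pearson's r but not by Spearman's rho (adjusted permutation p 0.0756, 0.0721 and 0.106), and went to -0.27, -0.4 and -0.153 without those 2 tumours.

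Of the positive pairs, 7 passed by Pearson's r and not by Spearman's rho: Timp2 with Mmp3, Mmp10, Mmp12 and Mmp13, Mmp3 with Mmp13 and with Timp1, and Mmp14 with Mmp10 (adjusted permutation p for rho 0.0763 to 0.123). Several also rested on a few tumours. Mmp3 with Mmp12 did not pass (r = 0.538, adjusted permutation p 0.0713), and over all 24 tumours Mmp3 passed with none of Mmp12, Mmp13 and Mmp10 (r = 0.146, 0.244 and 0.384). Mmp3 with Timp1 went from r = 0.669 to 0.233, Mmp3 with Mmp13 from 0.68 to 0.383 and Mmp3 with Timp2 from 0.586 to 0.228 without the 2 farthest tumours for Mmp3. Timp2 with Mmp12 and with Mmp13 went from 0.586 and 0.571 to 0.294 and 0.241. All pairs share the libraries and their scaling.

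**Figure D4:**
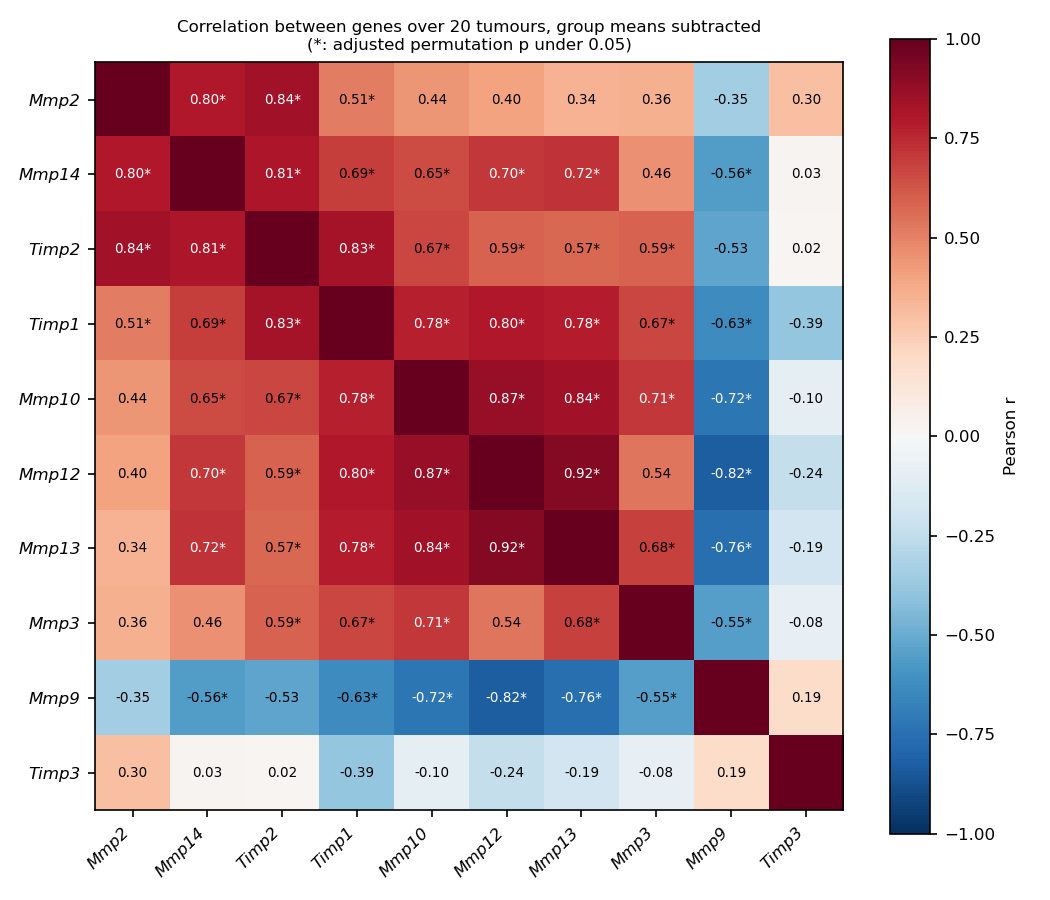
Pearson r between the 10 genes over 20 tumours, on log2 CPM with group means subtracted (red positive, blue negative); an asterisk marks an adjusted permutation p under 0.05. Timp3 has no asterisk, and the Mmp9 row is negative except with Timp3.

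Over the same 20 tumours, the gene most like each member was found by Pearson's r among 13729 other genes tested, as a description. Genes with no symbol, or with the symbol of a predicted or clone-named gene, were left out. Timp1 was closest to Bdkrb2, a bradykinin receptor gene, at r = 0.974, and Timp2 to Prnp, the prion protein gene, at 0.959, followed by Cspg4, the NG2 proteoglycan gene, at 0.948. Mmp12 was closest to Ero1l, an oxidase of the endoplasmic reticulum, at 0.953, and Mmp13 to the transcriptional repressor gene Tgif1 at 0.941, which was also the third gene of Mmp12 at 0.939. Mmp10 was closest to Clec4e, the myeloid lectin Mincle, at 0.93. Mmp14 was closest to the glypican gene Gpc1 at 0.926 and Mmp2 to Sulf2, an extracellular heparan sulfatase, at 0.922. The nearest genes of Mmp3 (Rev1, a DNA polymerase, 0.869), Mmp9 (Mad1l1, of the spindle checkpoint, 0.823) and Timp3 (Txnrd3, a thioredoxin reductase, 0.816) were less close.

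Related proteases and inhibitors were read in the same comparison, brequinar over both antibodies, where 12.5% of all genes were called. Of 17 other metalloproteinase and TIMP genes, 10 could be tested and Mmp25, a membrane-anchored metalloproteinase of leukocytes, rose from 3.93 ± 1.79 to 8.60 ± 4.34 CPM (log2 fold change 1.18 ± 0.24, adjusted p 0.00254, above the mean in 11 of 12 tumours). The median log2 fold change of the 10 was 0.04, against 0.01 over all genes. Of 19 ADAM and ADAMTS genes 3 rose and 2 fell. Adamts1, a secreted protease of proteoglycans, rose by 0.55 ± 0.15 and Adamts5, an aggrecanase, by 0.39 ± 0.11, while Adamts14, a procollagen peptidase, had -0.65 ± 0.14 and fell.

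Cathepsin genes moved both ways. Ctsk, the collagen-cutting cathepsin K, fell from 46.4 ± 37.8 to 10.1 ± 9.59 CPM (SD, n = 12 each), or -2.24 ± 0.50 on the log2 scale (adjusted p 0.00624), and lay below the mean in all 12 tumours. Ctss, cathepsin S of antigen-presenting cells, rose by 0.66 ± 0.16 and Cst3, which encodes the inhibitor cystatin C, by 0.37 ± 0.08, out of 8 genes tested. Of the plasminogen system 0 of 6 genes were called, with Plau, urokinase, at -0.24 ± 0.11 (adjusted p 0.173). Of 12 genes that activate, hold or clear metalloproteinases, Lrp1, the endocytic receptor for several of them and their inhibitors, alone rose, by 0.44 ± 0.13 (0.0296).

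No matrix substrate of 19 tested was called, with Col3a1, a fibrillar collagen, at 4850 ± 1140 against 4710 ± 774 CPM (log2 fold change 0.04 ± 0.12). Of 12 inducing cytokines and growth factors, Fgf2 rose by 0.56 ± 0.12 (adjusted p 0.00489) and Areg, the growth factor amphiregulin, fell, at -1.23 ± 0.34 (0.0204). Of 17 AP-1, ETS and related factor genes, Fosl1, the AP-1 member FRA1, fell, at -0.71 ± 0.18 (0.0126), and Etv4, an ETS factor, fell, at -0.46 ± 0.09 (0.00239). None rose. In BRQ+PD-1 against IgG2a, Il1b, the cytokine interleukin-1 beta, rose by 1.1 ± 0.31 (adjusted p 0.0465).

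Markers of cell types that can carry these genes moved with brequinar as well. Of 5 T cell markers 4 rose, with Cd4 at 9.95 ± 3.94 against 4.30 ± 1.93 CPM, and their sum ranged from 8.25 to 31.2 CPM in IgG2a, 14.2 to 42.3 in PD-1, 17.1 to 106 in BRQ+IgG2a and 13.6 to 64.3 in BRQ+PD-1. Of 7 macrophage markers 3 rose (among them Adgre1, which encodes F4/80, by 0.56 ± 0.14 and Cd68 by 0.25 ± 0.08), with sums of 1290 to 2310, 1520 to 2350, 1070 to 2950 and 1750 to 2620 CPM in the same order of groups. Of 4 mast cell markers 3 rose, among them Tpsb2, a tryptase, by 1.05 ± 0.31. Of the melanocytic markers tested, Mitf rose from 14.1 ± 1.79 to 22.8 ± 12.5 CPM (log2 difference 0.67 ± 0.20, adjusted p 0.0307, above the mean in 9 of 12 tumours). The melanocytic sum, which was mostly Mitf, ranged from 11.8 to 18 CPM over IgG2a and PD-1. It ranged from 12.3 to 42.2 in BRQ+IgG2a and from 15.8 to 52.1 in BRQ+PD-1.

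Fibroblast markers (0 of 8 called; sums of 3660 to 4580, 3410 to 6070, 3060 to 5560 and 2940 to 5480 CPM), neutrophil markers (0 of 7; 10.9 to 23.9, 16.8 to 59.8, 18.2 to 34.9 and 15.9 to 29.0 CPM) and endothelial markers (0 of 4) did not pass. These zeros are from edgeR, with 4448 of all genes at an unadjusted p under 0.05 in this comparison. Of the 7 neutrophil markers, Csf3r alone was called higher in BRQ+IgG2a against IgG2a (log2 fold change 1.03 ± 0.24, edgeR adjusted p 0.0158). Over both antibodies the neutrophil markers went both ways, with Csf3r at 0.50 ± 0.17 (0.0506), S100a9 at -0.75 ± 0.41 (0.242) and a list median of -0.465. The 7 muscle genes had a median log2 fold change of -2.89 with 0 called; the muscle-rich tumours numbered 3 without brequinar and 1 with it. Their part in Timp3, Mmp2 and Mmp9, and that of the immune and melanocytic markers, was not tested beyond the fits without the muscle-rich tumours given above.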

How the data were processed

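RNA of 24 tumours was sequenced. The submitters' processing notes name build GRCm39, HISAT2 2.2.1, StringTie 2.2.1, Trim Galore 0.6.7, MultiQC 1.11 and FastQC 0.11.8. Which program counted, on which annotation and strand, is not given in the sources used here, so overlapping and antisense genes cannot be told apart. The authors deposited whole-number counts per Ensembl gene, not normalized, and these were tested. The deposited FPKM and TPM tables, as used here, hold none of the 10 genes and were not used.

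Symbols (52081 of 55414 IDs matched) and exon lengths came from GENCODE M21. Counts were tested with edgeR 4.0.16 in R 4.3.3 (TMM, filterByExpr by group, robust quasi-likelihood F test, 24 libraries, group as the only term, 20 residual degrees of freedom), adjusted over 16029 genes and called at 0.05. SE is the log2 fold change over the square root of F. Correlations used log2 CPM (prior count 2) and 100000 permutations within groups. The 60 replicate pairs had a chi-square per degree of freedom of 9.12 to 208, where sampling noise alone gives about 1, and each library was counted separately. The edgeR script was run on simulated data with 200 changed genes, for the comparison over both antibodies only, and the outcome is not given here.

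The members and the 18 lists (171 genes) were chosen with earlier results of these data known. Named were the 10 members, up to 4 called genes of each list (or its 2 most abundant) and the 3 genes most like each member. Of the genes this rule names, 1 is not reported here. Alternatives were RLE factors, no expression filter, DESeq2 1.42.0, limma 3.58.1 voom, a replicate block, leaving out muscle-rich or single tumours (Acta1 over 1000 CPM marking the former), and fitting only the groups compared.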

Additional observations from a re-analysis of the deposited data

Results flagged for a closer look

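In 5 of the 40 gene-by-group sets of 6 tumours, a single tumour lay farther from the rest than Dixon's critical value at 95% allows; chance alone flags about 1 set in 20. Mmp3 was at 102 CPM in PD-1 replicate 6, which is muscle-rich, against 26.2 in the next tumour, and at 85.7 CPM in BRQ+PD-1 replicate 1 against 43.8. Mmp10 was at 8.18 CPM in IgG2a replicate 4 against 1.97 in the next. Mmp13 was at 154 CPM in BRQ+IgG2a replicate 5 against 36.7. Timp1 was at 282 CPM in IgG2a replicate 4 against 191.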

How the results depend on the processing

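Timp3 and Mmp2 over both antibodies kept their direction and call in all 30 alternatives. The numbers of members called moved as follows. For BRQ+IgG2a against IgG2a, 1 became 0 with no expression filter, with the replicate block, without the muscle-rich tumours and with only the groups compared, and 2 by limma voom, which added Timp1. For BRQ+PD-1 against IgG2a, 0 became 1 by DESeq2 and 2 by voom. For BRQ+PD-1 against PD-1, 2 became 1 with no filter and with only the groups compared and 0 with the replicate block, where Timp3 and Mmp2 had adjusted p 0.0641 and 0.0515, and 3 by voom, which added Timp2. For BRQ+PD-1 against BRQ+IgG2a, 0 became 1 by voom. Leaving out a tumour gave 0 to 1, 0 to 1 and 0 to 2 in the first 3. Deviations of same-numbered tumours correlated at -0.64 to 0.444 (median -0.00434, 15 of 36 over 0.1). Tumours of different numbers were not compared, so pairing by replicate number is neither shown nor excluded. The losses under the block therefore stand as a limit on those calls. With the block the Mmp9 change over both antibodies was -1.06 (adjusted p 0.0758), and with no filter -1 (0.101).

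Of all alternative values of the 10 genes in the 7 comparisons, 84 changed sign, each for a gene that had not passed, 44 lost a call, 7 gained one and 1415 did neither; the causes were not tested. By voom, signs turned for Mmp14 (-0.0956) and Mmp12 (-0.134) in BRQ+IgG2a against IgG2a, Mmp9 (-0.175) and Mmp3 (-0.101) in PD-1 against IgG2a, Mmp10 in BRQ+PD-1 against PD-1 (-0.161), Mmp2 in BRQ+PD-1 against BRQ+IgG2a (0.063), Mmp10 over both antibodies (-0.58) and Mmp3 in the interaction (0.331). Without the muscle-rich tumours they turned for Mmp14 in BRQ+IgG2a against IgG2a (-0.0601), Mmp3 in PD-1 against IgG2a (-0.283), Mmp13 in BRQ+PD-1 against PD-1 (-0.011), Mmp10 over both antibodies (-0.13) and Mmp3 in the interaction (0.437). With no filter Mmp10 over both antibodies was -0.0086. The r of Mmp3 with Timp2 was -0.0606 over all 24 tumours.

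Fits without a single tumour turned signs in these ranges. BRQ+IgG2a against IgG2a: Mmp14 -0.081 to 0.0763, Mmp12 -0.533 to 0.83, Mmp3 -0.00967 to 0.462, Mmp10 -1.48 to 0.324, Mmp13 -0.173 to 1.05 and Timp1 -0.681 to 0.0215. PD-1 against IgG2a: Mmp14 -0.0781 to 0.0355, Mmp9 -0.0762 to 0.491, Mmp12 -0.136 to 0.567, Mmp3 -0.373 to 0.402 and Mmp10 -0.996 to 0.00792. BRQ+PD-1 against IgG2a: Mmp10 -1.01 to 0.533 and Timp1 -0.0869 to 0.367. BRQ+PD-1 against PD-1: Mmp3 -0.114 to 0.849, Mmp10 -0.177 to 0.769, Mmp13 -0.203 to 0.461 and Timp1 -0.226 to 0.224. BRQ+PD-1 against BRQ+IgG2a: Mmp9 -0.37 to 0.0518, Mmp12 -0.0744 to 1.15, Mmp3 -0.161 to 0.48, Mmp10 -0.494 to 1.18 and Timp2 -5.44e-06 to 0.217. Over both antibodies: Mmp10 -0.473 to 0.425, Mmp13 -0.0135 to 0.597 and Timp1 -0.308 to 0.0512. Interaction: Mmp12 -0.291 to 1.07, Mmp3 -0.415 to 0.538, Mmp13 -0.9 to 0.319, Timp1 -0.0943 to 0.746 and Timp3 -0.154 to 0.184.

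Counts over all genes moved by more than 1.5 times for BRQ+IgG2a against IgG2a (554; 888 by DESeq2, 2188 by voom, 361 with the block, 337 with only its groups), PD-1 against IgG2a (3; 0 with no filter or the block, 27 by DESeq2, 7 by voom), BRQ+PD-1 against IgG2a (627; 297 with no filter, 1540, 1477, 285 with the block, 404 without muscle-rich tumours, 371), BRQ+PD-1 against PD-1 (808; 431, 1406, 2216, 411, 502 and 360 in that order) and over both antibodies (2001; 3817 by voom). Leaving out 1 tumour gave 258 (without BRQ+IgG2a replicate 6) to 1179 (BRQ+IgG2a replicate 5) in the first of these, 0 to 2 in the second, 256 (IgG2a replicate 3) to 783 (BRQ+PD-1 replicate 4) in the third, 399 (BRQ+PD-1 replicate 3) to 1083 (BRQ+PD-1 replicate 4) in the fourth, and 0 to 65 (BRQ+IgG2a replicate 5) for BRQ+PD-1 against BRQ+IgG2a.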
